A study of Mus musculus with 4 samples.

Results

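Protein kinase A is described here through the probe sets that name one of its subunits as their single gene symbol, on 4 microarrays hybridised with total RNA of mouse skeletal muscle. The members were the regulatory subunit genes Prkar1a, Prkar1b, Prkar2a and Prkar2b and the catalytic subunit genes Prkaca and Prkacb. They matched 6 of the 12422 probe sets on the array that are not controls, and these covered 5 of the 6 genes, where the array names 8251 genes in all. Prkar1b had 2 probe sets, Prkar2b had none named for it, and each of the other genes had 1. The titles code 2 arrays as J (replicates 1a and 1c) and 2 as NJ (replicates 1a and 1d), all at a time of 0 h. All 4 titles also carry the code Ctr. The codes are used as given because the labels do not spell them out. The title of the series names the neuromuscular junction. The sources used here give no strain, age, genotype or pooling of animals, and do not say whether a group's arrays stem from different animals, so p-values measure only the spread between these arrays, which may be technical.

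Protein kinase A is the main effector of cyclic AMP. Its regulatory subunits form dimers that hold the catalytic subunits inactive, and binding of cyclic AMP to the regulatory subunits lets the catalytic subunits phosphorylate their targets. Prkar1a and Prkar1b encode type I regulatory subunits (RI-alpha and RI-beta), which carry a pseudosubstrate sequence, while Prkar2a and Prkar2b encode type II subunits, which the catalytic subunit itself can phosphorylate and which anchoring proteins hold at membranes and the cytoskeleton. In skeletal muscle the kinase is known for switching on glycogen breakdown through phosphorylase kinase. At the synapse between nerve and muscle it is known for slowing the loss of acetylcholine receptors, and RI-alpha protein is known to concentrate there.

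The promoters of the members were searched for a pair of short motifs that belong to this biology, and the matches are shown for that reason. The cyclic AMP response element TGACGTCA is bound by CREB, a transcription factor that the kinase phosphorylates, and it reads the same on both strands. The core of the N-box, CCGGAA, searched on both strands, is bound by Ets factors and is known from genes that muscle transcribes at its synapses. The windows run from 250 bases before to 50 bases after each RefSeq start site of GRCm38.p6. The members have 19 such windows, 6 of them for Prkar1a. The response element occurred in 1 place, covered by 2 overlapping windows of Prkar1a, and 1.79% of all 32817 mouse windows hold it. The N-box core occurred in 6 of the 19 windows of the members, against 14.9% of all windows. It was found for Prkar1a, Prkar1b, Prkar2b, Prkaca and Prkacb and not in the single window of Prkar2a. Of all genes 16.6% hold it in any window, and the members have 1 to 6 windows each, some overlapping. Below are the stretches with a match that lie nearest to a start site, with the motif in capitals, written 5′ to 3′ on the strand of the gene.
Prkar1a, response element, chr11:109650889-109650918, plus strand: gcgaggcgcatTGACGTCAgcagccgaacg
Prkar1a, N-box core, chr11:109650930-109650959, plus strand: cggtcggctggtTTCCGGtggagccgtcgc
Prkaca, N-box core, chr8:83972883-83972912, plus strand: ggcgcgggagggTTCCGGagggccaatgga
Prkacb, N-box core, chr3:146813010-146813039, minus strand: cggcgcgcccgcCCGGAAagaggcggaggt
Prkar2b, N-box core, chr12:32061350-32061379, minus strand: ggttgccatggtTTCCGGggatcacgtggg
The Prkar1a response element begins 49 bases before one annotated start site and lies 38 bases after another. The N-box core of Prkar1a begins 7 bases before the same start site as the first of these, that of Prkaca 83 bases and that of Prkacb 81 bases before theirs. A match is a stretch of letters in a window and not a site shown to be used, and the arrays did not measure binding. Whether either motif bears on the J and NJ signals was not tested.

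The family was chosen on the J and NJ signals of Prkar1a, which were known beforehand, so the comparison of J with NJ is a description for all members, with no test. Deposited signals are on a linear scale. Differences are J minus NJ of quantile-normalised log2(signal + 32), each with a standard error from limma over 2 arrays per group, and this scale understates the change of dim probe sets. All 6 probe sets were above the 25th percentile of mean brightness that was required for a test. Over all 9316 probe sets tested, limma called 0 in either direction when p-values were adjusted by Benjamini-Hochberg at a threshold of 0.05 (0% called), with 117 higher and 82 lower at an unadjusted p under 0.05. With 2 arrays a group, the smallest two-sided p of an exact permutation test is 0.333.

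Prkar1a, the widely expressed type I regulatory subunit, was the member whose lower J signal exceeded its higher NJ signal. Its signals were 13636 on J 1a and 14134 on J 1c, against 2145 on NJ 1a and 3722 on NJ 1d. The J arrays lay within 1.04-fold of each other, the NJ arrays differed by 1.74-fold, and the lower J signal was 3.66 times the higher NJ signal. On normalised values such an order, J above NJ without overlap, was found for 13.6% of the probe sets tested, and the reverse order for 12.8%, so that groups did not overlap for 26.4% in all. A gap at least as wide as that of Prkar1a on the deposited scale was found for 27 probe sets, Prkar1a included (0.29%). In bulk RNA, fewer cells that carry a transcript and less of it per cell cannot be told apart.

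The fitted difference of Prkar1a was 2.41 ± 0.39, or 5.30-fold. It was 2.59 between J 1a and NJ 1a and 2.22 between J 1c and NJ 1d. With each array left out in turn it stayed between 2.04 and 2.71. An alternative fit added a term for the number format of the deposited values. The term sets the 1a arrays against each other and J 1c against NJ 1d. With it limma called 8 probe sets, Prkar1a among them, and without it Prkar1a was not called. As Prkar1a was chosen on these signals, its call is a description and lends no support. Ordered by signal within an array, which no scaling of whole arrays can alter, Prkar1a stood at place 162 on J 1a and 122 on J 1c, and at place 1301 on NJ 1a and 747 on NJ 1d, of 12422. It moved from the 89.5th and 94.0th percentiles of the NJ arrays to the 98.7th and 99.0th of the J arrays.

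**Figure D1:**
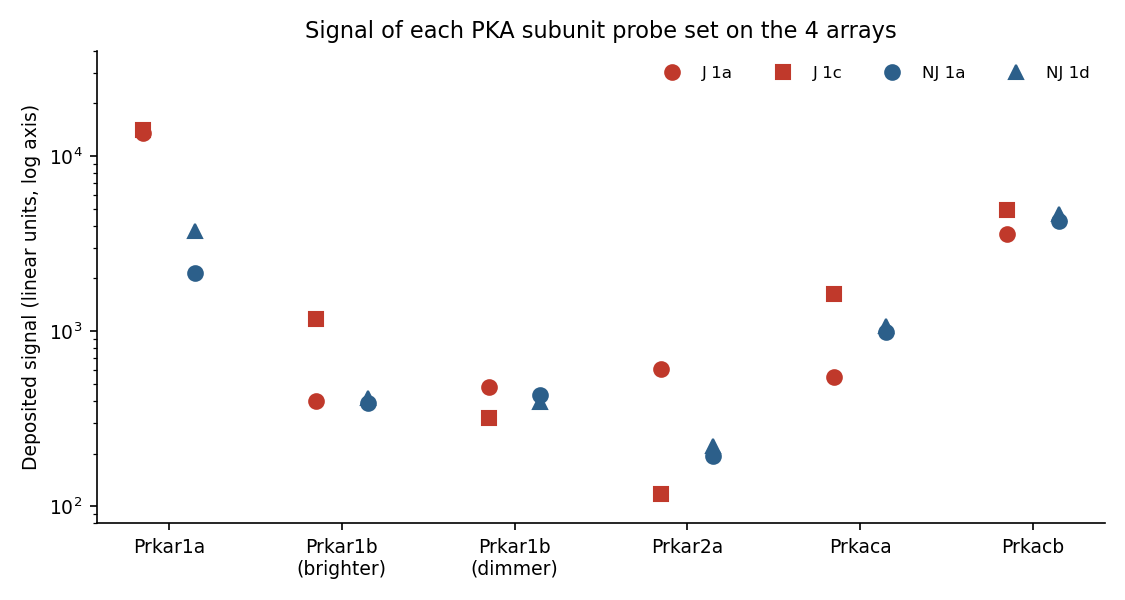
Deposited signal (linear units on a log axis) of the 6 probe sets on each of the 4 arrays, J in red and NJ in blue, with 1 point per array. Prkar1a has both J points above both NJ points, while the J points of the brighter Prkar1b probe set, Prkar2a and Prkaca lie on either side of the NJ points or far apart.

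The place of Prkar1a among all probe sets describes the same signals that the family was chosen on, and nothing is drawn from it. By signed difference it ranked 14th of the 9316. The 357 probe sets that were brighter on average had differences from −2.26 to 1.23.

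**Figure D2:**
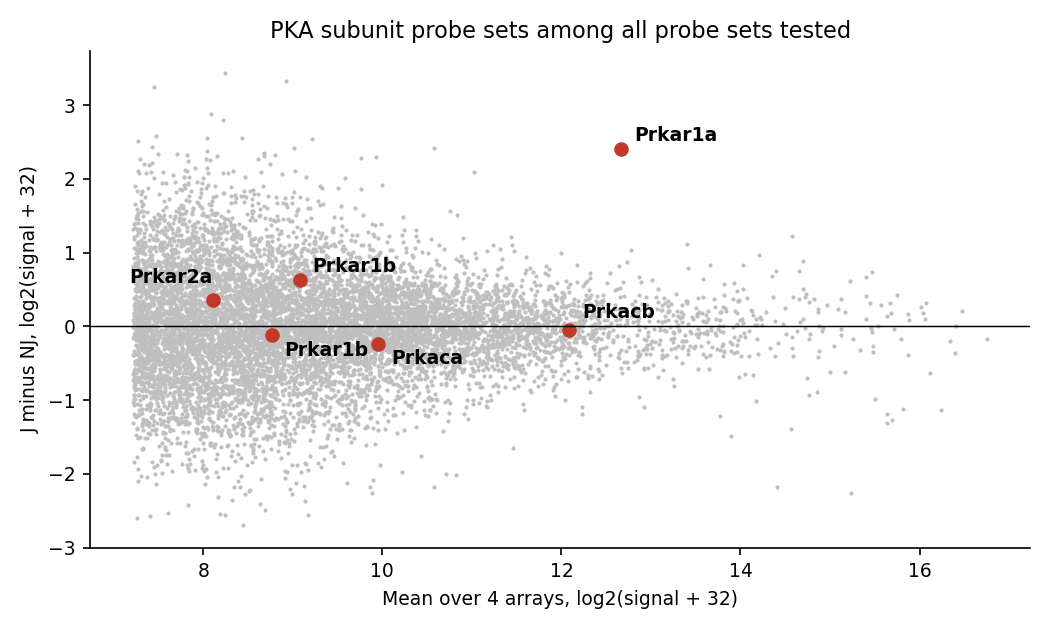
J minus NJ (log2(signal + 32), quantile normalised) against mean brightness over the 4 arrays for the 9316 probe sets tested (grey), with the 6 PKA subunit probe sets in red. Prkar1a lies at 2.41, and the other 5 lie between −0.23 and 0.63.

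The second type I subunit, Prkar1b, is known mainly from the nervous system, and its 2 probe sets disagreed. At the brighter one the signals were 400.4 on J 1a and 1167 on J 1c, against 386.9 on NJ 1a and 415.9 on NJ 1d. The high value was that of J 1c alone, and J 1a lay between the NJ arrays. The difference was 0.63 ± 0.74, with 0.01 for J 1a against NJ 1a and 1.24 for J 1c against NJ 1d. At the dimmer one the signals were 481.6 and 320.3 in J, in the order 1a and 1c, against 430.2 and 395.7 in NJ. There J 1c was the lowest of the 4 arrays, and the difference was −0.11 ± 0.69. No type I change shared by both genes was thus seen: the J arrays overlapped the NJ arrays at both probe sets of Prkar1b.

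Prkar2a, the type II regulatory subunit found in most tissues, had the widest spread between the J arrays. Its signals were 607.8 on J 1a and 117.6 on J 1c, against 193.1 on NJ 1a and 220.4 on NJ 1d. J 1a was the highest and J 1c the lowest of the 4 arrays, 5.17-fold apart. The difference was 0.36 ± 0.88, made of 1.56 for J 1a against NJ 1a and −0.83 for J 1c against NJ 1d, and with each array left out it ran from −0.56 to 1.26. The other type II gene, Prkar2b, known from fat and brain, has no array signal described here.

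Prkaca encodes the catalytic subunit C-alpha, which does the phosphorylating in most tissues. Its signals were 545.4 on J 1a and 1621 on J 1c, against 987.5 on NJ 1a and 1076 on NJ 1d. Here J 1a was the lowest array and J 1c the highest, the reverse of Prkar2a. The difference was −0.23 ± 0.61, with −0.95 for J 1a against NJ 1a and 0.48 for J 1c against NJ 1d.

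Prkacb encodes the second catalytic subunit, C-beta, and was the steadiest of the members. Its signals were 3585 and 4945 in J, in the order 1a and 1c, against 4275 and 4678 in NJ. The 4 arrays lay within 1.38-fold of each other, with both NJ arrays between the J arrays. The difference was −0.05 ± 0.36 and ran from −0.22 to 0.12 with each array left out. Prkacb stood between the 94.4th and 95.7th percentiles of signal on every array.

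The choice of members did not use the spread between arrays of the 5 probe sets other than Prkar1a. Their deposited NJ signals lay within 1.07-fold to 1.14-fold of each other, while their J signals differed by 1.38-fold to 5.17-fold. The share of all probe sets with a wider spread in J than in NJ was not computed. On normalised log2 values 3 of the 5 had a standard deviation between the J arrays above 1, which 22.1% of all tested probe sets also had. It was 0.20 for the dimmer Prkar1b probe set and 0.24 for Prkacb. Over all tested probe sets the median standard deviation was 0.51 between the J arrays and 0.40 between the NJ arrays. Of these 5 probe sets, 4 changed sign between the pair of 1a arrays and the pair of J 1c and NJ 1d, as 50.5% of all tested probe sets did. Prkar1a had a standard deviation of 0.24 between the J arrays and 0.50 between the NJ arrays; a positive sign in both pairs belongs to the pattern it was chosen on.

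**Figure D3:**
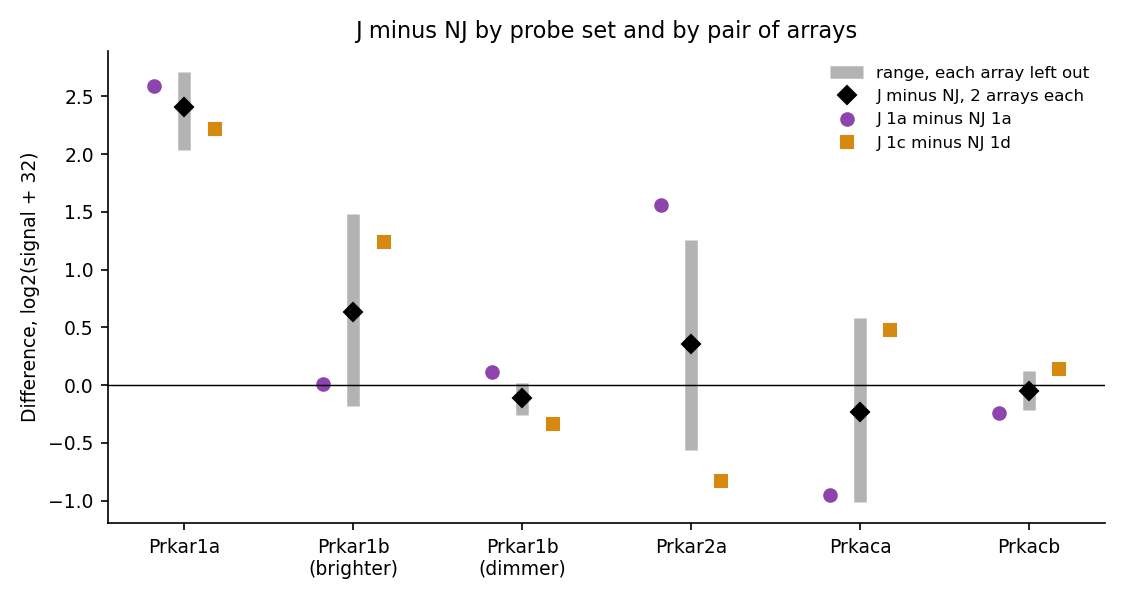
J minus NJ (log2(signal + 32)) for each probe set: black diamonds are the fitted difference over 2 arrays per group, purple points J 1a minus NJ 1a, orange squares J 1c minus NJ 1d, and grey bars the range with each array left out. Prkar1a stays between 2.04 and 2.71, whereas the grey bars of the other 5 probe sets cross 0.

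The balance between subunits was followed as the ratio of the Prkar1a signal to that of another subunit on the same array, which the scaling of whole arrays does not touch. Levels of different probe sets cannot be set against each other, so each ratio is given relative to its geometric mean over the NJ arrays. Against Prkacb the ratio was 6.02 on J 1a and 4.52 on J 1c, and 0.794 on NJ 1a and 1.26 on NJ 1d. Against Prkaca it was 9.12 and 3.18 on the J arrays, in the same order, and 0.793 and 1.26 on the NJ arrays. On both J arrays Prkar1a thus stood higher relative to either catalytic subunit than on either NJ array. The lower J ratio was 3.59 times the higher NJ ratio for Prkacb, where the J ratios differed from each other by 1.33-fold. For Prkaca it was 2.52 times, less than the 2.87-fold between the J ratios.

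Relative to the type II subunit Prkar2a, the ratio was 1.64 on J 1a and 8.77 on J 1c, against 0.811 and 1.23 on the NJ arrays. Relative to Prkar1b it was 4.84 and 1.72 at the brighter probe set and 4.13 and 6.44 at the dimmer one, against 0.787 and 1.27, and 0.728 and 1.37, on the NJ arrays. These ratios kept the order of the groups, but the lower J ratio exceeded the higher NJ ratio by 1.33-fold for Prkar2a and by 1.35-fold for the brighter Prkar1b probe set, again less than the J ratios differed from each other (5.36-fold and 2.81-fold). On normalised log2 values the J minus NJ of Prkar1a exceeded that of Prkacb by 2.46 ± 0.37 and that of Prkaca by 2.64 ± 0.69. It exceeded that of Prkar2a by 2.04 ± 1.09 and those of Prkar1b by 1.78 ± 0.66 and 2.52 ± 0.40. Each error is the standard error over the arrays. The order follows from Prkar1a itself, since its ratio to 86.4% of all tested probe sets likewise stood higher in J without overlap.

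Ratios among the other 5 probe sets were taken on deposited signals only, without normalisation. That of Prkaca to Prkacb differed by −0.05 on the log2 scale, with overlapping groups. Of the 10 pairs that these 5 form, 2 did not overlap, those of the brighter Prkar1b probe set over Prkaca (0.90) and over Prkacb (0.86), where 27.1% of all pairs of tested probe sets did not overlap. The remaining 8 pairs overlapped, with differences from −0.45 to 0.84.

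**Figure D4:**
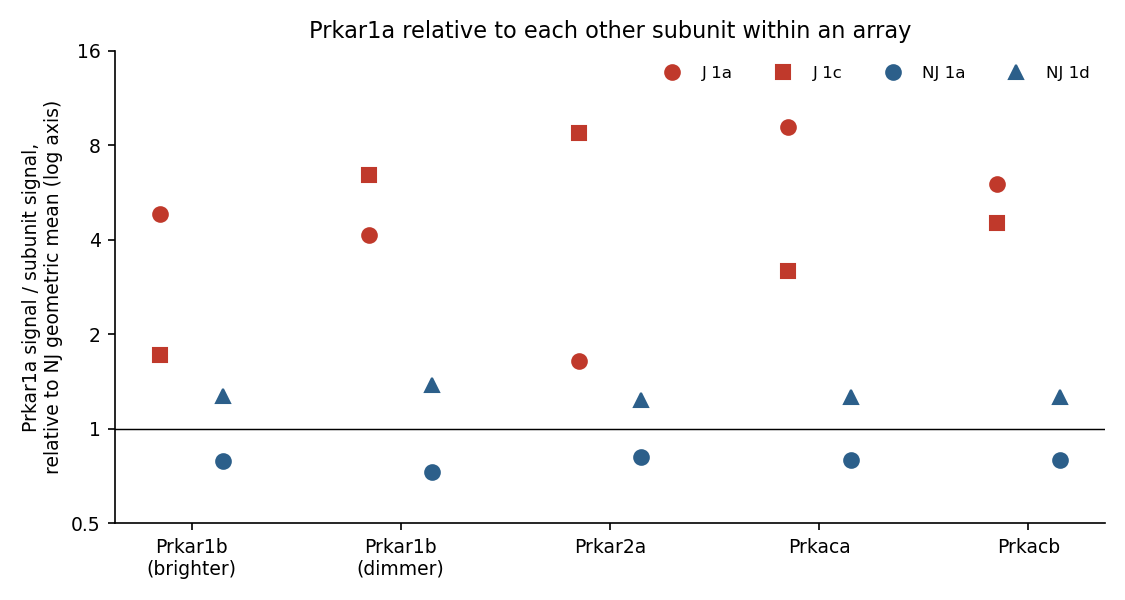
Signal of Prkar1a over the signal of each other subunit on the same array, relative to the geometric mean of the NJ arrays (log axis), with J in red and NJ in blue. All J points lie above all NJ points of their column, by 3.59-fold for Prkacb and by 1.33-fold for Prkar2a at the narrowest.

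The probe sets most like Prkar1a over the 4 arrays were found by Euclidean distance between log2 values centred on each probe set's own mean. They were Tgs1, a methylase of RNA caps (distance 0.22), Myl4, the light chain of myosin in embryonic muscle and atria (0.36), Irf8, a transcription factor of blood cells (0.47), Cadm1, a cell adhesion molecule (0.52), and Tmpo, a protein of the nuclear envelope (0.59). Tgs1 had signals of 772.1 on J 1a and 930.2 on J 1c, against 111.2 on NJ 1a and 177.7 on NJ 1d, so its arrays stood in the same order as those of Prkar1a. Such likeness follows from the choice by distance over the same 4 arrays, and nothing is drawn from it. Tmpo had signals of 673.9 and 622.6 against 138.4 and 102.9, but its other tested probe sets differed by −0.75 and −0.24. Those of Cadm1 differed by −0.40 and 0.44, and that of Myl4 by 1.51. Among the other PKA subunits the distance was 2.01 for the brighter Prkar1b probe set, with 12.4% of tested probe sets nearer than it. It ran from 2.51 for Prkacb to 2.81 for Prkaca among the rest, with 40.2% to 60.9% of probe sets nearer.

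The wider cyclic AMP pathway was followed with 144 genes in 9 lists, of which 92 were on the array and 80 passed the brightness filter, each at its brightest probe set. With limma, 0 rose and 0 fell in J at an adjusted p under 0.05 over all probe sets (0% of all 6773 genes tested were called), and at an unadjusted p under 0.05 there were 3 higher and 1 lower. The genes were split evenly, with 40 higher and 40 lower and a median difference of −0.01, against −0.012 over all genes tested. J lay above NJ without overlap for 17 of the 80 and below it for 6, where 13.4% and 13.1% of all genes tested did so. Overlap of groups was judged for these genes on normalised values. Apart from Chrne and genes named to describe a list, the genes below are those with the widest differences of each list, up to 4. None passed the limma test.

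Upstream of the kinase lie the receptors that raise cyclic AMP and their G proteins. The list also holds the inhibitory alpha subunits Gnai1, Gnai2, Gnai3 and Gnao1 and the regulator Rgs2, so its counts mix both directions of control. Of its 14 tested genes 8 were above and 6 below 0, and their median of 0.13 ran from −0.10 to 0.52 with each array left out. Gnai2, an inhibitory G protein alpha subunit, differed by 1.03 ± 0.45 and Ramp1, which pairs with the receptor for the nerve peptide CGRP, by 0.69 ± 0.38, both with J above NJ without overlap, although the deposited signals of Gnai2 overlapped. The other probe sets of Gnai2 differed by 0.19 and 0.29. Gnb1, a G protein beta subunit, differed by 0.61 ± 0.50 with overlapping groups, and its other probe sets by −0.10 and −0.86. Vipr2, a receptor of the peptide VIP, differed by −0.91 ± 0.89, from a high signal of 432.5 on NJ 1d against 103.8 to 106.9 on the other 3 arrays.

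Adenylyl cyclases make cyclic AMP and phosphodiesterases break it down. Of 6 cyclases 3 were higher and 3 lower, with Adcy7 at 1.48 ± 0.81, Adcy3 at 1.11 ± 0.77, Adcy6 at −0.87 ± 0.57 and Adcy2 at −1.42 ± 0.88. The J arrays lay above the NJ arrays for Adcy7 and below them for Adcy6, and the groups overlapped for the other two. Pde4b, a cyclic AMP phosphodiesterase that is itself induced by cyclic AMP in many cells, had signals of 96.2 on J 1a and 114.2 on J 1c, against 746.4 on NJ 1a and 266.5 on NJ 1d. Both J signals were thus below both NJ signals, with a difference of −1.93 ± 0.81. Pde8a differed by 1.05 ± 0.71 without overlap on normalised values and with overlap of the deposited signals, Pde7a by −1.58 ± 1.01 and Pde1b by −0.09 ± 0.74, the last being 0.04 on the deposited scale. The median of the 4 phosphodiesterases was −0.83 and ran from −1.40 to −0.01 with each array left out.

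Anchoring proteins place the kinase near its targets through the regulatory subunits. Of 9 genes tested on this list, 5 had a positive difference and 4 a negative one, and the median was 0.06. The 9 include Smad1, a transcription factor and not an anchoring protein, which is among the positive ones. Its difference of 0.06 is the median itself. Akap4, known from the sperm tail, was dim, with signals of 470 on J 1a and 214.8 on J 1c against 73.3 on NJ 1a and 36.3 on NJ 1d. It differed by 2.01 ± 0.77, and Akap2 by 1.26 ± 0.77, both with J above NJ on all arrays. Akap8l differed by 0.64 ± 0.88 and Akap9, an anchor at the centrosome and Golgi, by −1.19 ± 0.90, both with overlapping groups, although both deposited J signals of Akap9 lay below the NJ signals. Of the inhibitors and other effectors 1 was higher and 4 were lower, and 0 of the 5 had groups that did not overlap. The kinase inhibitor genes Pkib and Pkig differed by −0.77 ± 0.82 and 0.14 ± 0.49, the ion channel gene Hcn2 by −0.12 ± 0.37 (on deposited signals both J arrays lay below both NJ arrays) and Popdc3, of a family of cyclic AMP-binding membrane proteins, by −0.49 ± 0.63.

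Downstream, 13 substrates and enzymes of muscle metabolism and calcium handling had 7 above and 6 below 0 and a median of 0.08, which was −0.12 without normalisation and −0.18 after median centring. Pygm, the muscle glycogen phosphorylase, had signals of 27517 and 19192 in J, in the order 1a and 1c, against 15941 and 12576 in NJ, a difference of 0.97 ± 0.40. Ppp1r2, an inhibitor of protein phosphatase 1, differed by 1.28 ± 0.68, and its second, dimmer probe set by 0.08. Ppp1cb, a catalytic subunit of that phosphatase, was lower on both J arrays, at 2344 and 2334 against 4940 and 3606, a difference of −0.86 ± 0.38. Ppp1r3c, which targets the phosphatase to glycogen, differed by 0.80 ± 0.86 with overlapping groups.

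The CREB family and its coactivators had 2 of 5 genes higher in J and 0 with groups that did not overlap. The coactivator Crebbp differed by 0.54 ± 0.48, the RNA-binding protein Nono by 0.15 ± 0.45, Crem by −0.37 ± 0.97 and Creb1 by −0.13 ± 0.98, while other probe sets of Creb1 gave 1.03 and −0.49 and the second one of Crem had a positive difference, opposite to the first. Of 15 genes that cyclic AMP is known to induce, 8 had a positive difference and 7 a negative one, with a median of 0.04. J lay above NJ without overlap for 5 of them and below it for 2, beside 13.4% and 13.1% of all genes tested. Those with the widest differences were all lower: the transcription factor Cebpb at −1.15 ± 0.56 and the clock gene Per1 at −0.84 ± 0.80 without overlap (the deposited signals of Per1 overlapped), and Id1, an inhibitor of bHLH factors, at −1.69 ± 0.95 and the growth factor Bdnf at −0.86 ± 0.96 with overlap.

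The last list holds the acetylcholine receptor subunits and genes of their trafficking, where the kinase is known to act. Of 9 tested, 5 had a positive difference and 4 a negative one, and the median was 0.02. Chrna1, the receptor's alpha subunit, differed by 2.36 ± 1.05, the fetal subunit Chrng by 0.92 ± 0.70 and Chrnd by 0.50 ± 0.75, each with both J signals above both NJ signals, while Chrnb1 differed by −0.21 ± 0.71. Those 3 were the members of the list without overlap, beside 13.4% of all genes tested that lay higher in J in this way. Chrna1 ran from 0.95 without NJ 1a to 3.73 without NJ 1d, and its signals were 515.0 on J 1a and 1777 on J 1c against 44.8 on NJ 1a and 404.2 on NJ 1d. A second probe set of Chrng differed by −0.40. Chrne, the adult receptor subunit, was added after its values were seen: it differed by 0.20 ± 0.57 at its brightest probe set, with overlapping groups, and by 1.64 and 2.80 at the others.

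**Figure D5:**
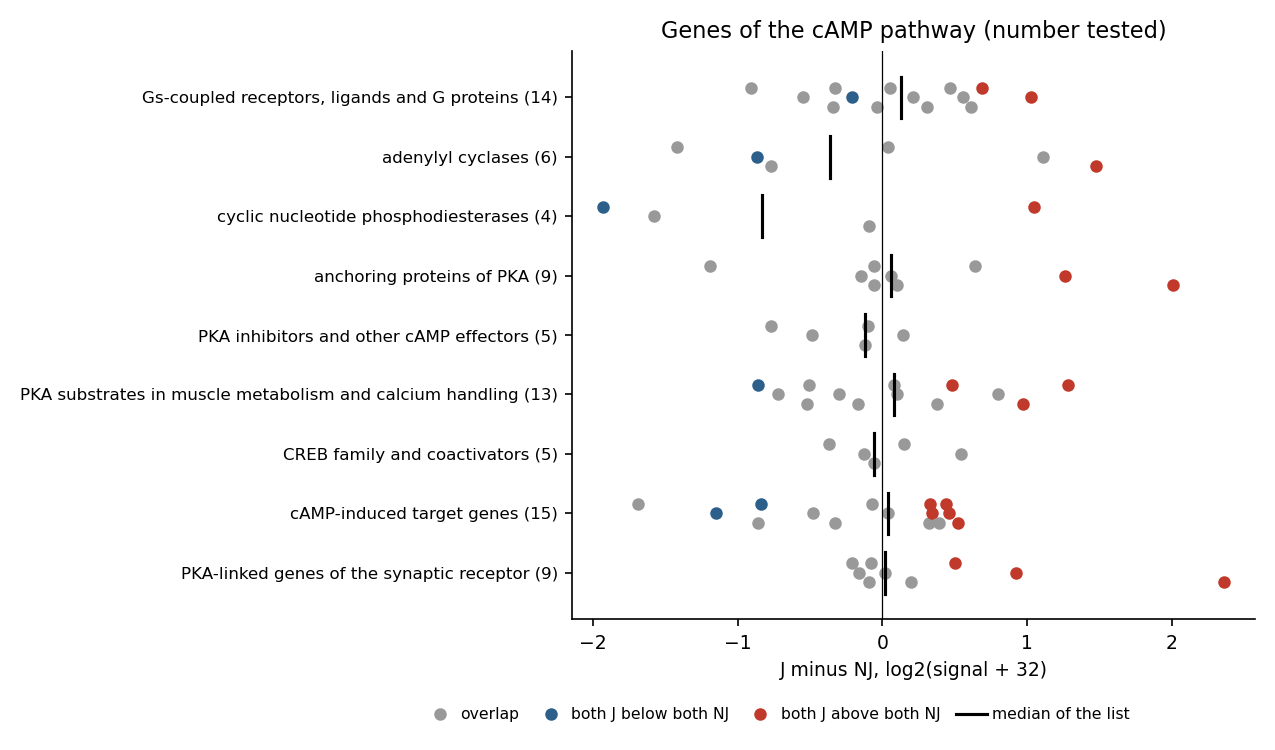
J minus NJ (log2(signal + 32)) of the tested genes of 9 cyclic AMP pathway lists, 1 point per gene at its brightest probe set, red where both normalised J values lie above both NJ values, blue where both lie below and grey where the groups overlap, with the median of each list as a bar. The medians lie from −0.83 for the phosphodiesterases to 0.13 for receptors and G proteins, and 0 genes passed the limma test.

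Markers of muscle fibres and of other cells were read beside these values. All sums are of deposited signals. That of 8 muscle fibre markers, among them Acta1 and Ckm, ran from 168234 on J 1c to 824508 on J 1a. The J arrays thus lay on either side of the NJ arrays (539317 and 651405), and Myh2 was too dim to test. On normalised values 3 of the 7 tested fibre genes were higher in J and 4 lower, with a median of −0.07. Normalised differences of J 1c from NJ 1d ran from −2.14 for Myh4 to 0.29 for Acta1, with 0.00 for Myh1 and Tnnt3. In deposited signal Prkar1a was as high on J 1c as on J 1a. The sum of 6 endothelial markers was 7462 and 5667 in J against 5415 and 5299 in NJ, with 3 of 5 tested genes higher in J. Sums were lower on both J arrays for 5 fat cell markers, at 9579 and 11265 against 12311 and 19786 (1 of 4 tested genes higher in J), and for 8 leukocyte markers, at 2994 and 2702 against 4152 and 3317 (2 of 6 tested genes higher in J). The lowest signals of any member of these lists were 25.6, 58.1 and 25.5, in the same order, so none was at 0. The sums follow the brightest genes, and some of the single markers, named here after their values were seen, went against them. Adipoq, a hormone of fat cells, gave 1295 on J 1a and 1132 on J 1c and, on NJ 1a and NJ 1d, 335.0 and 246.4, and differed by 1.90 ± 0.59, while the fat cell sum was carried by Lpl, at 7615 and 15492 in NJ. Among leukocyte markers S100a8 differed by 2.09 ± 0.75, against the direction of the sum, and Fcer1g by −2.55 ± 0.82, in its direction, both without overlap.

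The summed signals of Schwann cell, neuron and axon, fibroblast, smooth muscle and blood markers overlapped between J and NJ. Member by member, 6 of 6 smooth muscle and pericyte genes were higher in J, with 1 of them without overlap and a median of 0.54, which leaving out single arrays moved to between −0.21 and 1.21. Between the 1a arrays alone Acta2, Myh11 and Rgs5 differed by −0.04, −0.68 and −0.05, and Cnn1, Tagln and Pdgfrb by 1.30, 0.09 and 1.04. Of 7 fibroblast genes 5 were higher and 3 did not overlap, with a median of 0.34. Postn, a matrix protein of fibroblasts, had signals of 1311 on J 1a and 699.8 on J 1c against 43.3 on NJ 1a and 75.2 on NJ 1d, a difference of 3.43 ± 0.81 that was wider than that of Prkar1a. It too was named after its values were seen. None of these markers was called by limma. Adipoq, S100a8 and Postn thus lay higher in J, as Prkar1a did, and so did the smooth muscle and pericyte genes, mostly with overlapping groups. The endothelial marker Vwf was also higher, at 1.87 ± 0.72 without overlap, where 3 of 5 tested endothelial genes were higher and 2 lower. Most fat cell and leukocyte markers went the other way, with 3 of 4 and 4 of 6 tested genes lower in J. The part of other cells in the difference of Prkar1a was not tested.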

How the data were processed

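The authors deposited linear intensities, 1 for each probe set on each array; the software that made them is not stated in the labels. The mean of each deposited column after trimming 2% at each end was 800.52 to 800.64, and all values were above 0. Control probe sets (66 of 12488) were left out of tests. The platform's gene table gave 1 symbol for 10833 probe sets, several for 396 and none for 1193. Column medians of log2(intensity + 32) ran from 8.29 to 8.67, above a limit of 0.1, so the arrays were quantile normalised. Probe sets at or above the 25th percentile of mean brightness were fitted with limma 3.58.1 in R 4.3.3 (lmFit and eBayes, intensity trend on, 2 residual degrees of freedom), with Benjamini-Hochberg adjustment. The script was tested on simulated data. With 2 arrays per group, their number limits the precision. Values of both 1a arrays have full digits, those of J 1c and NJ 1d only 1 decimal; this format crosses the groups and cannot be told apart from the replicate label. Promoter windows came from RefSeq (GRCm38.p6) and all 6 members matched; no probe or protein sequence was used. The members and lists were chosen with earlier results of these data known. Most genes are named by rule: every member, up to 4 genes per pathway list with the widest differences, and the 5 probe sets nearest to Prkar1a. Chrne, the cell type markers and genes named to describe a list stand outside this rule. Chrne and the single markers given with values were named after the values were seen. Alternatives were the deposited scale, median centring, other pseudocounts, filters and variance prior, a number-format term, the mean of a gene's probe sets, and leaving out each array. Plots used matplotlib 3.10.9 (Python 3.11.15).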

Additional observations from a re-analysis of the deposited data

How the results depend on the processing

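No paired analysis was possible by replicate number because the labels of J and NJ share only 1a; the number-format term is the one fit that sets J 1a beside NJ 1a and J 1c beside NJ 1d. Prkar1a moved by less than the spread between arrays under every alternative run, at 2.22 to 2.42 with other scalings, pseudocounts and the number-format term and at 2.04 to 2.71 with each array left out. The change of Prkar1a relative to the other subunits ran, with each array left out, from 1.93 to 3.34 for Prkaca, from 2.07 to 2.77 for Prkacb and from 1.07 to 3.07 for Prkar2a. For Prkar1b it ran from 1.04 to 2.51 at the brighter probe set and from 2.25 to 2.77 at the dimmer one. The lowest values for the brighter Prkar1b probe set and for Prkaca were those without J 1a. The count of probe sets that limma called was 0 in the main setting, 8 with the number-format term and, with each array left out, between 0 and 4; the 4 calls came without J 1a. Prkar1a was among the 8 and not among the 4, and as it was chosen on these signals its call is a description. The cause was not tested. Of the pathway genes, which leave out the subunits, 0 were called under any alternative run. The filters and the variance prior do not bear on the differences of single probe sets and were run for the counts only. With 2 arrays per group, differences below about the standard errors given cannot be resolved. Wider ones are not thereby resolved, as limma called 0 probe sets in the main setting.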
